A study of Mus musculus with 6 samples.

Results

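Inflammasomes are protein platforms that assemble in the cytosol of macrophages, neutrophils and other cells when a sensor protein detects a microbial product or a sign of cell damage. The sensor, often through the adaptor ASC, gathers caspase-1, which cuts the precursors of interleukin-1β and interleukin-18 into their active forms and opens gasdermin pores in the membrane. The genes described here are 10 components of that pathway, chosen by name for their roles, with earlier results of these data known. The sensors are Nlrp3, Nlrp1a and Nlrp1b, and the flagellin and secretion system sensors Naip2 and Naip5 with their partner Nlrc4. The others are the adaptor Pycard, the caspase genes Casp1 and Casp4, and the cytokine gene Il1b. All 10 were among the 47729 genes of the deposited count table and among the 15330 genes with enough reads to be tested.

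The study sequenced spleen RNA of female NOD.B10Sn-H2b/J (NOD.B10) mice, a strain used as a model of primary Sjögren's syndrome, and of female C57BL/10 (BL/10) controls, with 3 biological replicates per strain and neither a treatment nor an engineered allele named for any of them. NOD.B10 mice carry the genome of the diabetes-prone NOD strain with the major histocompatibility region of C57BL/10, so the strains differ across the genome and not at a single gene. The labels give an age of 26 weeks for the 3 NOD.B10 libraries and for BL/10 replicate 1, and 36 weeks for BL/10 replicates 2 and 3. The paper, in contrast, gives 26 weeks for NOD.B10 and calls the controls age-matched. By the labels the later age occurs in BL/10 only, so age cannot be fully told apart from strain. The title and strain field of all 6 samples name the opposite strain from their description and from the column of the table, and the latter were used here. Every direction below reverses under the titles.

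The libraries held between 15662712 and 18298451 counted reads. Ifi202b, an interferon-inducible gene known to be barely expressed in C57BL/6 mice, had 838, 624 and 485 reads in the libraries named NOD.B10 and 2, 0 and 0 in those named BL/10. Pancreas was present in the BL/10 spleens in unequal amounts, since genes of the pancreas acinar list made up 1.41% of the normalized reads in replicate 1, 0.216% in replicate 2 and 0.0113% in replicate 3. Between the strains, 2656 of the 15330 genes tested passed an adjusted p of 0.05 in edgeR's quasi-likelihood test, which is 17.3% (9.11% higher and 8.22% lower in NOD.B10), and the libraries of the strains did not overlap for 38.0%.

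Nlrp1a and Nlrp1b are neighbours on chromosome 11 and arose by duplication, as did Naip2 and Naip5 on chromosome 13. The transcript sequences that set each copy apart therefore decide which gene a 50-base read is counted for. The strains differed in counts at 1 copy of each pair. As a description only, the 250 bases before the RefSeq start of each of these genes are given here (RefSeq, GRCm38.p6, all on the minus strand, written 5′ to 3′). These windows lie before the transcripts, so they do not show how reads were assigned. All are from the reference genome, so their letters compare the copies and not the strains. Whether the strains differ in these windows was not tested. In the Nlrp1 pair, capitals mark the letters that differ from the other copy or have no partner in it. The windows are chr11:71144705-71144954 for Nlrp1a and chr11:71230734-71230983 for Nlrp1b.
Nlrp1a: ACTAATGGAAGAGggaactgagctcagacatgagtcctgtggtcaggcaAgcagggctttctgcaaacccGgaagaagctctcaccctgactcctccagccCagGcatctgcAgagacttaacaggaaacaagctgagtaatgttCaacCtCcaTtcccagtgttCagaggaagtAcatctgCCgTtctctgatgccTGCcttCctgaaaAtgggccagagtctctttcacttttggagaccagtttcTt
Nlrp1b: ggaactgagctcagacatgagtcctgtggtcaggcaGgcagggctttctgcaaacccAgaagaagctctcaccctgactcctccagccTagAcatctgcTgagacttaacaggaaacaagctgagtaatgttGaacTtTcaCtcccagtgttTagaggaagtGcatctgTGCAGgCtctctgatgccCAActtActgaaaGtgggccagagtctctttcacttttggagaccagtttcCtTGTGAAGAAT
Of 237 bases that could be set side by side, 217 were identical and 20 differed. In the Naip pair the windows, chr13:100202123-100202372 for Naip2 and chr13:100247337-100247586 for Naip5, had a longest shared stretch of 34 bases, in capitals. The Naip windows were not aligned as the Nlrp1 windows were, so lower-case letters can also be shared.
Naip2: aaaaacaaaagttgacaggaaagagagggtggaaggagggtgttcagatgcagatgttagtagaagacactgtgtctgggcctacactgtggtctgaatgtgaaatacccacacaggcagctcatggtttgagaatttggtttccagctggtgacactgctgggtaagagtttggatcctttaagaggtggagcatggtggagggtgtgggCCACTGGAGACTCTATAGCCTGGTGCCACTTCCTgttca
Naip5: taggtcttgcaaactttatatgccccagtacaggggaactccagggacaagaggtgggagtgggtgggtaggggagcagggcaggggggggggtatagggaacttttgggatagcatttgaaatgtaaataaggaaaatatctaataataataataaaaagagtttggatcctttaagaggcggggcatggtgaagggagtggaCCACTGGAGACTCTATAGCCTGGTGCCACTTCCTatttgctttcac
Over the transcripts themselves, 88 of the 4256 stretches of 50 bases in Nlrp1a also occurred in another gene, and 91 of 6271 in Nlrp1b. The Naip genes shared more, with 927 of 4842 stretches in Naip2 and 1901 of 5155 in Naip5, so the counts of the Naip genes are less certain than those of the Nlrp1 genes.

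The same 250-base windows were searched on both strands for short motifs in all 27025 promoters of the RefSeq table, which held a window for each of the 10 genes. GAGGAAGT, a form of the site of the myeloid factor PU.1, was in 3 of the 10 windows (Nlrp1a, Nlrp1b and Pycard) and in 2.44% of all promoters. The Nlrp1a and Nlrp1b windows are near copies (217 of 237 bases identical), so their matches are not independent. The AP-1 site TGANTCA (6.87% of all promoters) was in none of the 10 windows. A match is a description of letters only.

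Nlrp1a was higher in NOD.B10 spleens and Naip5 and Nlrc4 were lower, while Nlrp3, Nlrp1b, Naip2, Pycard, Casp1, Casp4 and Il1b did not pass the test. Nlrp1a differed 7.0-fold, and Naip5 and Nlrc4 by 1.35-fold and 1.45-fold. Thus 3 of the 10 genes passed, 1 higher and 2 lower, against 17.3% of all genes tested, and the same 3 were those whose libraries did not overlap between the strains, against 38.0% of all genes tested. The median log2 fold change of the 10 genes was 0.20, beside 0.00 over all genes tested. Above 0 were 8 of the 10 values, beside 7678 of all 15330 genes tested. Those of Nlrp3, Naip2, Pycard, Casp1 and Casp4 changed sign under some other settings. With NOD.B10 replicate 1, NOD.B10 replicate 2 or BL/10 replicate 3 left out, Nlrp1a alone passed. Each gene had between 53 and 1854 reads per library, well above the detection floor of 3 reads. In whole spleen RNA, fewer cells of a type and less RNA per cell cannot be told apart.

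**Figure D1:**
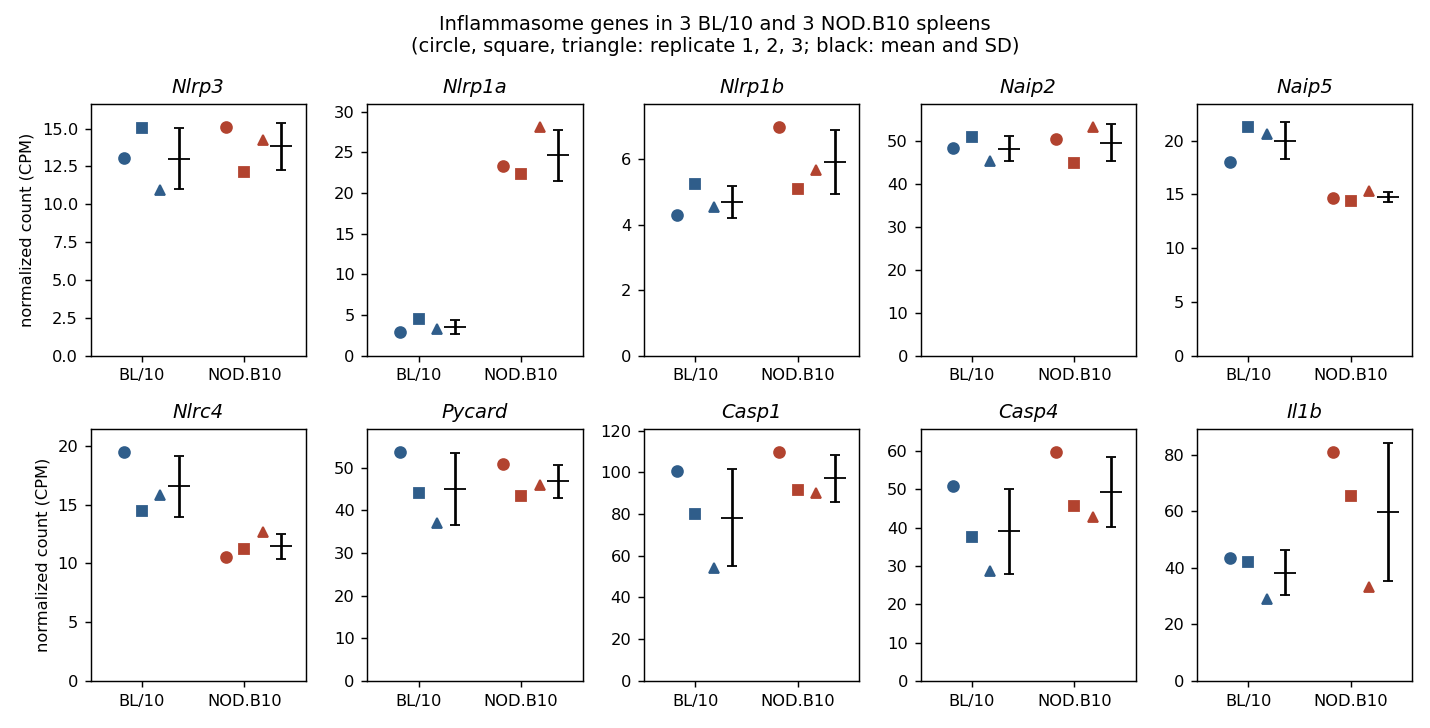
Normalized counts (CPM, linear axes from 0) of the 10 inflammasome genes in the 3 BL/10 and 3 NOD.B10 libraries, with symbols for the replicates and the mean and SD in black. Nlrp1a lies between 22.4 and 28.2 CPM in NOD.B10 and between 2.88 and 4.49 CPM in BL/10, and the libraries also separate for Naip5 and Nlrc4.

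Nlrp1a (ENSMUSG00000069830, chr11:71092236-71144704 on GRCm38, minus strand) encodes a NOD-like receptor that can activate caspase-1 without ASC. In CPM, the reads of a gene scaled to a fixed total per library, it was at 23.3, 22.4 and 28.2 CPM in the NOD.B10 libraries and at 2.88, 4.49 and 3.24 CPM in the BL/10 libraries. The lowest NOD.B10 library was above the highest BL/10 library by a wide margin. The means were 24.6 ± 3.10 CPM (SD, n = 3) and 3.54 ± 0.847 CPM (SD, n = 3), a log2 fold change of 2.81 (SE 0.19, adjusted p = 0.000107 in edgeR's quasi-likelihood test). Of all genes tested, 1.11% passed with a rise at least as large. The call held under each of 16 other settings, with log2 fold changes from 2.67 to 3.09.

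Nlrp1b (ENSMUSG00000070390, chr11:71153102-71230733, minus strand) encodes a sensor that anthrax lethal factor can cleave, depending on the allele. It was at 6.998, 5.10 and 5.68 CPM in NOD.B10 and at 4.29, 5.23 and 4.55 CPM in BL/10. The groups overlapped, with NOD.B10 replicate 1 the highest library. The log2 fold change was 0.34 (SE 0.18, adjusted p = 0.216). Nlrp1c-ps, the pseudogene on the other side of Nlrp1b, moved the opposite way from Nlrp1a, with 5, 5 and 3 reads in NOD.B10 and 14, 26 and 25 in BL/10. Its log2 fold change was -2.30 (SE 0.44, adjusted p = 0.0116), although its NOD.B10 counts lie close to the floor.

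Within each library, the ratio of Nlrp1a to Nlrp1b shows the difference without any scaling between libraries. Of the reads counted for Nlrp1a or Nlrp1b, Nlrp1a took 76.9% (95% Wilson interval 73.1 to 80.4), 81.4% (77.6 to 84.8) and 83.2% (80.0 to 86.0) in the NOD.B10 libraries. In the BL/10 libraries it took 40.2% (32.2 to 48.7), 46.2% (38.3 to 54.3) and 41.6% (33.7 to 50.0). No interval of one strain reached an interval of the other, and these intervals cover counting error only. Per kilobase of exon, Nlrp1a stood at 5.04 to 7.51 times Nlrp1b in NOD.B10 and at 1.02 to 1.30 times in BL/10, and an exact two-sided permutation test gave p = 0.1, the smallest that 3 libraries against 3 allow. The adjusted p over the 9 ratios computed for these genes was 0.225. The 3 Nlrp1 genes summed to 30.8 ± 3.12 CPM in NOD.B10 and to 9.53 ± 1.79 CPM in BL/10 (SD, n = 3 each). In BL/10, Nlrp1b averaged 4.69 CPM and Nlrp1c-ps 1.31 CPM, too little for a fall as large as the rise of Nlrp1a. The sums therefore cannot show whether reads were assigned differently among the copies, which was not tested.

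**Figure D2:**
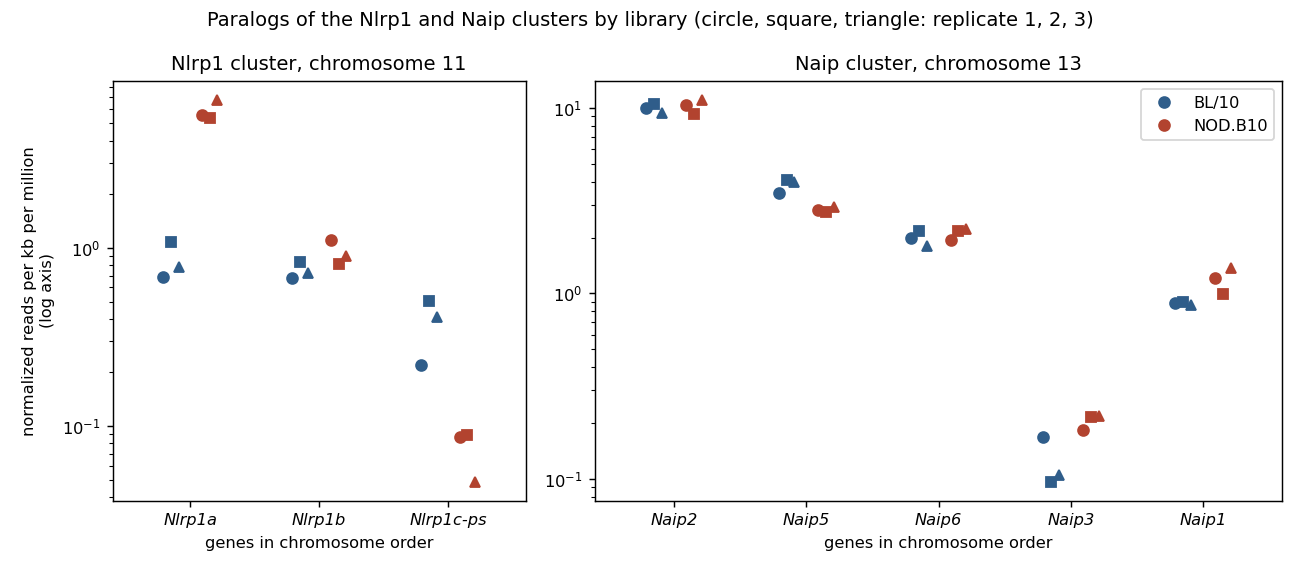
Levels of the Nlrp1 and Naip paralogs in chromosome order, in CPM per kilobase of exon (log axis), 1 symbol per library. Nlrp1a is at 5.37 to 6.76 in NOD.B10 and at 0.691 to 1.08 in BL/10, and the pseudogene Nlrp1c-ps is lower in NOD.B10. Within the Naip cluster Naip5 separates downward. Naip1 and Naip3 separate upward but did not pass the test.

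Naip5 (ENSMUSG00000071203, chr13:100211739-100246323, minus strand) binds bacterial flagellin. It was at 14.7, 14.4 and 15.3 CPM in NOD.B10 and at 18.0, 21.3 and 20.6 CPM in BL/10. All NOD.B10 libraries were below all BL/10 libraries. The means were 14.8 ± 0.467 CPM (SD, n = 3) and 19.99 ± 1.74 CPM (SD, n = 3), a log2 fold change of -0.44 (SE 0.11, adjusted p = 0.0286 in edgeR's quasi-likelihood test). The direction held under all 16 other settings, but the call held under 10, and of the 6 fits that each leave out 1 library only the one without BL/10 replicate 1 kept it (adjusted p = 0.0136). Without both libraries labelled 36 weeks the adjusted p of Naip5 was 0.305.

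Naip2 (ENSMUSG00000078945, chr13:100144063-100202092, minus strand), which binds the rod protein of bacterial secretion systems, was at 50.5, 45.0 and 53.4 CPM in NOD.B10 and at 48.4, 51.0 and 45.3 CPM in BL/10. The strains overlapped completely, with a log2 fold change of 0.04 (SE 0.10, adjusted p = 0.793). Naip5 stood at 0.266 to 0.297 of Naip2 per kilobase in NOD.B10 and at 0.347 to 0.424 in BL/10, with no overlap and an exact permutation p = 0.1, the smallest possible (0.225 adjusted over the 9 ratios). Naip6, the copy that shares most with Naip5, had a log2 fold change of 0.09 (adjusted p = 0.623), and Naip1, another sensor of secretion systems, had 0.43 (adjusted p = 0.110). The libraries of Naip1 did not overlap in CPM and were higher in NOD.B10. Naip3, with 7 to 19 reads per library, also separated upward in CPM, with a log2 fold change of 0.72, but did not pass. Together Naip1, Naip2, Naip5 and Naip6 came to 85.2 ± 5.87 CPM in NOD.B10 and to 86.5 ± 4.79 CPM in BL/10 (SD, n = 3 each). How far reads of the shared stretches contributed to the difference at Naip5 was not tested.

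Nlrc4 (ENSMUSG00000039193, chr17:74426295-74459108, minus strand) is the receptor that NAIP proteins assemble with to recruit caspase-1. It was at 10.5, 11.2 and 12.6 CPM in NOD.B10 and at 19.5, 14.5 and 15.8 CPM in BL/10. The groups did not overlap, and BL/10 replicate 1, the library with the most pancreas RNA, was the highest. The means were 11.5 ± 1.08 CPM (SD, n = 3) and 16.6 ± 2.60 CPM (SD, n = 3), a log2 fold change of -0.53 (SE 0.14, adjusted p = 0.0410). Without BL/10 replicate 1 the log2 fold change was -0.41 (adjusted p = 0.0599). The call held under 9 of the 16 other settings, and of the fits that each leave out 1 library only the one without BL/10 replicate 2 kept it (adjusted p = 0.0423). The ratio of Nlrc4 to Naip5 per kilobase overlapped between the strains, at 0.974 to 1.12 in NOD.B10 and 0.921 to 1.47 in BL/10 (exact permutation p = 0.9).

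Nlrp3 (ENSMUSG00000032691, chr11:59541568-59566956, plus strand), the sensor of potassium loss, crystals and extracellular ATP, was at 15.1, 12.1 and 14.2 CPM in NOD.B10 and at 13.03, 15.0 and 10.97 CPM in BL/10. The lowest NOD.B10 library lay inside the BL/10 range. Its log2 fold change was 0.09 (SE 0.15, adjusted p = 0.710). Of the 5 sensors and Nlrc4, the strain difference thus passed for 3, while Nlrp3, Nlrp1b and Naip2 did not pass.

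Pycard (ENSMUSG00000030793, chr7:127989708-127993867, minus strand) encodes ASC, the adaptor that links many sensors to caspase-1. It was at 51.0, 43.5 and 45.9 CPM in NOD.B10 and at 53.7, 44.2 and 37.0 CPM in BL/10. The BL/10 libraries spread on both sides of the NOD.B10 libraries, and the log2 fold change was 0.06 (SE 0.14, adjusted p = 0.809). A gene on the opposite strand, Gm45205, covers 12.8% of the exon bases of Pycard, and the sources used here do not say whether reads were counted by strand.

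Casp1 (ENSMUSG00000025888, chr9:5298517-5307265, plus strand) encodes the caspase that matures interleukin-1β. It was at 110, 91.5 and 89.8 CPM in NOD.B10 and at 101, 80.2 and 54.0 CPM in BL/10. BL/10 replicate 1 was above 2 of the NOD.B10 libraries, so the groups overlapped, and the log2 fold change was 0.31 (SE 0.21, adjusted p = 0.335). Casp4 (ENSMUSG00000033538, chr9:5308828-5336783, plus strand), its neighbour, encodes caspase-11, which binds lipopolysaccharide in the cytosol. It was at 59.8, 45.6 and 42.8 CPM in NOD.B10 and at 50.8, 37.7 and 28.6 CPM in BL/10, with a log2 fold change of 0.34 (SE 0.22, adjusted p = 0.304). In both caspase genes, replicate 1 was the highest and replicate 3 the lowest library of each strain. The ratio of Casp4 to Casp1 per kilobase was 0.192 to 0.220 in NOD.B10 and 0.190 to 0.214 in BL/10 (exact permutation p = 0.8). Without BL/10 replicate 1 the adjusted p was 0.0644 for Casp1 and 0.0555 for Casp4, and without both libraries labelled 36 weeks the log2 fold changes were -0.05 and -0.04.

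Il1b (ENSMUSG00000027398, chr2:129364570-129371139, minus strand) encodes the interleukin-1β precursor, which is made upon stimulation of myeloid cells and released after cleavage by caspase-1. It was at 81.0, 65.5 and 33.1 CPM in NOD.B10 and at 43.6, 42.0 and 29.0 CPM in BL/10. NOD.B10 replicates 1 and 2 were above all BL/10 libraries, and NOD.B10 replicate 3 lay among them. The means were 59.8 ± 24.4 CPM (SD, n = 3) and 38.2 ± 7.97 CPM (SD, n = 3), a log2 fold change of 0.65 (SE 0.31, adjusted p = 0.181), the second largest of the 10 in size. Of the 6 fits that each leave out 1 library, Il1b passed in the one without NOD.B10 replicate 3 (log2 fold change 0.94, adjusted p = 0.0321). The difference was smallest without NOD.B10 replicate 1, at 0.37 (adjusted p = 0.486), and was 0.48 (adjusted p = 0.390) without BL/10 replicate 3 and 0.46 (adjusted p = 0.616) without both libraries labelled 36 weeks. NOD.B10 replicate 3 was also the lowest library of its strain for 9 of 13 red pulp macrophage markers and the highest for 2. Among the neutrophil markers it was the lowest for 7 of 15, Cxcr2 and Csf3r among them, and the highest for 7, Ngp and Camp among them. Among the monocyte markers it was the lowest for 3 of 10 and the highest for 4. It was the highest for 10 of 10 T cell and 9 of 10 B cell markers and the lowest for 8 of 9 erythroid markers. The part of these cells in the spread of Il1b was not tested. Against Il1rn, the receptor antagonist that opposes interleukin-1, Il1b stood at 9.39 to 17.9 per kilobase in NOD.B10 and at 6.03 to 10.4 in BL/10, with overlap (exact permutation p = 0.3).

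**Figure D3:**
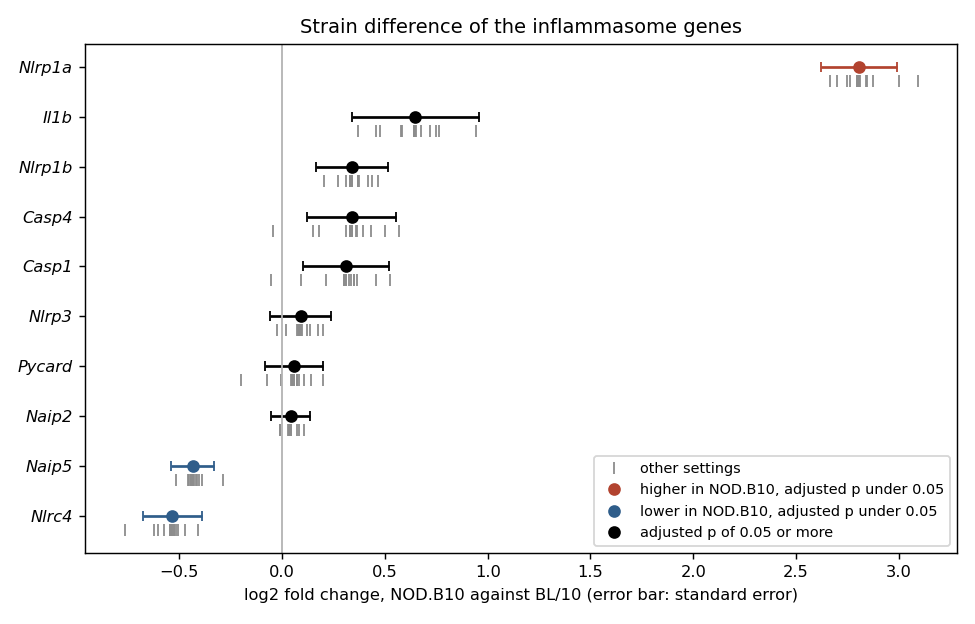
Log2 fold change of each of the 10 genes (NOD.B10 against BL/10, linear axis, error bar the standard error), with grey ticks for the 16 other settings. Nlrp1a stands at 2.81, Naip5 at -0.44 and Nlrc4 at -0.53, all with their ticks on 1 side of 0, while ticks of Nlrp3, Naip2, Pycard, Casp1 and Casp4 lie on both sides.

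Levels can be compared between genes only per length, here as CPM per kilobase of exon. On that scale Casp1 was the most abundant of the 10 (58.6 on average over 6 libraries), followed by Il1b (25.7), and each was above the next gene in all 6 libraries. Pycard (12.1), Casp4 (11.9) and Naip2 (10.1) formed a middle group whose order was kept in 4 of 6 libraries at each step. Nlrp1b was the lowest on average (0.842). Nlrp1a moved furthest in the order, ranking 6 of 10 in NOD.B10, where its 5.37 to 6.76 lay above every library of Nlrc4 (at most 3.29), Nlrp3 (at most 3.73) and Naip5 (at most 2.94). In BL/10 it ranked 9 of 10, and its 0.691 to 1.08 lay below every library of those 3 genes, the lowest of which was 2.70 for Nlrp3. Pycard and Casp4 exchanged ranks between the strains, and Nlrc4, Naip5 and Nlrp3 moved by 1 or 2 ranks.

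The neighbouring genes were read beside the 10. Next to Nlrc4 on chromosome 17, Yipf4, a Golgi membrane protein gene, was also lower in NOD.B10, at 47.7, 46.6 and 47.5 CPM against 77.0, 104 and 105 CPM, with no overlap. Its log2 fold change was -1.01 (SE 0.13, adjusted p = 0.00212), larger than that of Nlrc4, and Slc30a6 on the other side had 0.09 (adjusted p = 0.684). Il1a and Il1bos beside Il1b had log2 fold changes of 0.02 and 0.00, Casp12 after Casp4 had -0.10 and Msantd4 before Casp1 had 0.18. Of the outer neighbours of the other genes, these did not pass either, with 6330403K07Rik before Nlrp1a at -0.22, Smn1 before Naip2 at -0.21, Gm19366 beside Pycard at -0.10, and 4933439C10Rik and Mprip beside Nlrp3 at -0.14 and 0.13.

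Across the 6 libraries, the tested genes whose log2 CPM followed a gene most closely were named for the 3 genes that passed, as a description. For Nlrp1a these were Ighv1-81, Gm42667 and Gm26583 (Pearson r 0.999, 0.998 and 0.998), for Naip5 they were Ogfr, Rbm43 and Trem3 (0.997, 0.996 and 0.996), and for Nlrc4 they were Gh, Fnbp1l and Prps2 (0.999, 0.992 and 0.990). With 6 libraries in 2 strains such values are common, since 461, 412 and 66 genes had an r over 0.95 with Nlrp1a, Naip5 and Nlrc4.

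A list of 57 other genes of the inflammasome and interleukin-1 pathway was read in the same fit. It held 55 genes that were in the table and tested, of which 11 passed (20% against 17.3% of all genes tested), 7 higher and 4 lower, and the median of their log2 fold changes was 0.09. The count fell to 6 without NOD.B10 replicate 1, to 4 without NOD.B10 replicate 3, to 6 without BL/10 replicate 2 and to 5 without BL/10 replicate 3. It was 9 without NOD.B10 replicate 2 and rose to 14 without BL/10 replicate 1, the library with the most pancreas RNA. Leaving out both libraries labelled 36 weeks keeps that library alone for BL/10, so no count is given for that fit. Of the genes named next, Nod2 and Gbp2 passed in each of the 6 fits that leave out 1 library, Nlrc3 and Nlrp1c-ps in 5, Nlrp10, Gbp5 and Mlkl in 3, Txnip and Il1rl1 in 2 and Sigirr in 1. Txnip passed under 8 of the 16 other settings, and Il1rl1 had a log2 fold change of -0.41 without both libraries labelled 36 weeks.

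Among the other sensors and NOD-like receptors, 3 genes were higher and 1 lower of 13, beside 9.11% higher and 8.22% lower of all genes tested. Nod2, the receptor of bacterial muramyl dipeptide, was at 16.4, 11.8 and 14.2 CPM in NOD.B10 and at 7.11, 7.24 and 7.39 CPM in BL/10, without overlap, and its log2 fold change was 0.96 (SE 0.15, adjusted p = 0.00450). Nlrp10, a receptor without the leucine-rich repeats of its family, had 0.87 (SE 0.18, adjusted p = 0.0160). Nlrc3, known to restrain innate signalling, had 0.52 (SE 0.11, adjusted p = 0.0166). The pseudogene Nlrp1c-ps was the gene that fell. Aim2, the sensor of cytosolic DNA, had 0.23 (adjusted p = 0.353).

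Of the 12 activators, 3 passed (25% against 17.3% of all genes tested), each of them higher in NOD.B10. Gbp2, an interferon-induced GTPase that exposes bacterial lipopolysaccharide, was at 132, 84.1 and 97.0 CPM in NOD.B10 and at 56.3, 55.1 and 49.3 CPM in BL/10, without overlap, with a log2 fold change of 0.96 (SE 0.16, adjusted p = 0.00760). Gbp5, of the same family, had 0.62 (SE 0.13, adjusted p = 0.0187), and Txnip, a thioredoxin-binding protein that can bind NLRP3, had 0.46 (SE 0.13, adjusted p = 0.0481). Nek7, the kinase that NLRP3 needs, had 0.29 (adjusted p = 0.117). None of the 6 restrainers tested passed.

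Downstream, none of the 3 pore and rupture genes passed, with Gsdmd, the pore former cut by caspase-1, at a log2 fold change of -0.02 (adjusted p = 0.905). None of the 5 other cytokines and antagonists passed either, with Il18 at 0.19 (adjusted p = 0.235). Of the 8 receptors, Sigirr, an inhibitory member, was higher (0.56, SE 0.14, adjusted p = 0.0302), and Il1rl1, the receptor of interleukin-33, was lower (-1.06, SE 0.30, adjusted p = 0.0459) although its libraries overlapped. Of 4 partners in cell death, 1 passed, which was Mlkl, the pore former of necroptosis, lower at -0.77 (SE 0.17, adjusted p = 0.0223).

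**Figure D4:**
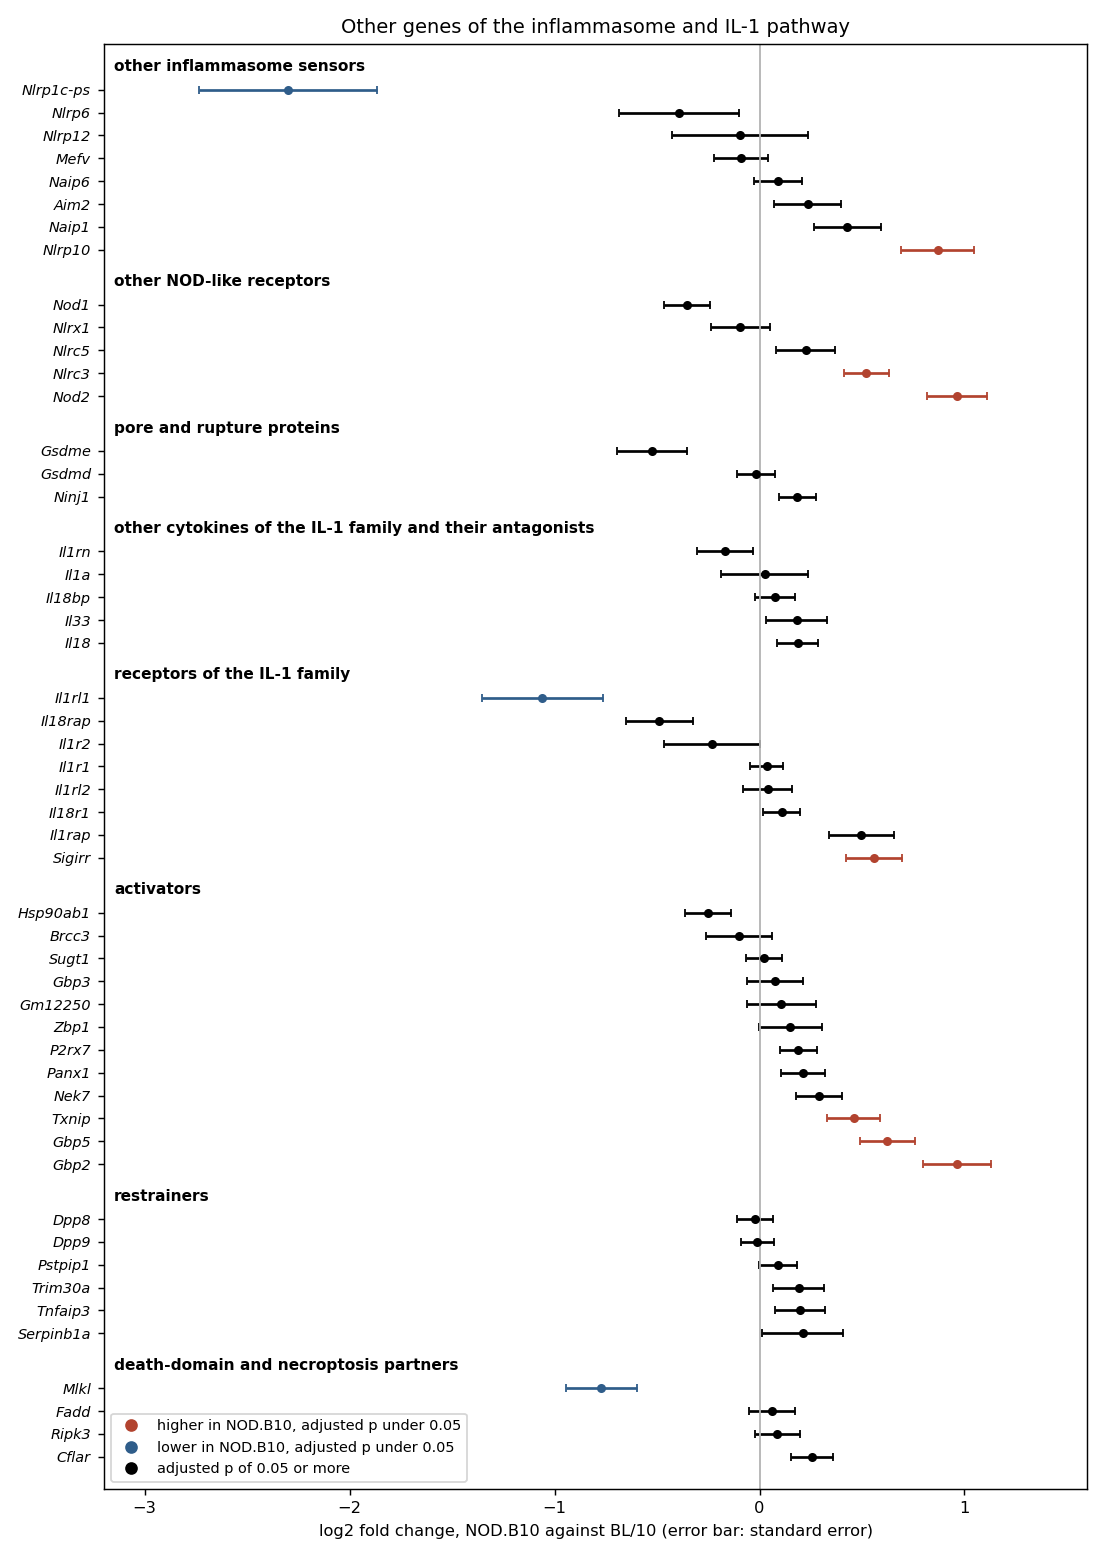
Log2 fold change (NOD.B10 against BL/10, linear axis, error bar the standard error) of the other pathway genes described here, by role. The 7 genes that are higher include Nod2 and Gbp2 at 0.96, and those that are lower include the pseudogene Nlrp1c-ps at -2.30 and Il1rl1 at -1.06.

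Myeloid cells express most of these genes, and markers of spleen cell types moved between the strains. Of 15 neutrophil markers, 13 were lower (median log2 fold change -1.87), with summed levels in NOD.B10 of 2342 to 2700 CPM against 6483 to 13487 CPM in BL/10, and Cxcr2 (0.58, adjusted p = 0.106) and Csf3r (-0.01, adjusted p = 0.987) were those that did not pass. Of 10 monocyte markers, 2 were lower (Ly6c2 and Chil3), with sums of 1026 to 1106 CPM against 1302 to 1994 CPM. These 2 genes weigh on the sums. Ly6c2 was at 9.27 to 10.4 CPM in NOD.B10 against 115 to 229 CPM in BL/10, and Chil3 at 122 to 173 CPM against 303 to 704 CPM. The other 8 did not pass, and 3 of the 10 log2 fold changes were above 0 (median -0.19). BL/10 replicate 1 had the lowest neutrophil and monocyte sums of its strain and the highest Nlrc4.

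Of 13 red pulp macrophage markers, 2 were higher and 2 lower, with sums of 4852 to 6078 CPM against 5107 to 6045 CPM, and none of 8 dendritic cell markers passed (992 to 1153 CPM against 882 to 1014 CPM). Of 10 T cell markers, 8 were higher (789 to 1105 CPM against 399 to 492 CPM), so the T cell sum moved in the direction of Nlrp1a. None of 10 B cell markers passed (4156 to 5398 CPM against 3122 to 5531 CPM), and 1 of 9 erythroid markers was lower (14144 to 25078 CPM against 14583 to 35953 CPM). The lower erythroid marker was Hba-a2, with 124, 148 and 95 reads in NOD.B10 and 34373, 59142 and 84646 in BL/10. Hba-a1 of the same list had a log2 fold change of 0.27 and did not pass. How NOD alleles affect the counts of Hba-a2 was not tested. All 12 acinar markers tested were lower, with sums of 22.5 to 31.5 CPM against 113 to 14092 CPM. No marker of these lists was at 0 in all libraries, and the part of these cells in the differences of Nlrp1a, Naip5 and Nlrc4 was not tested.

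**Figure D5:**
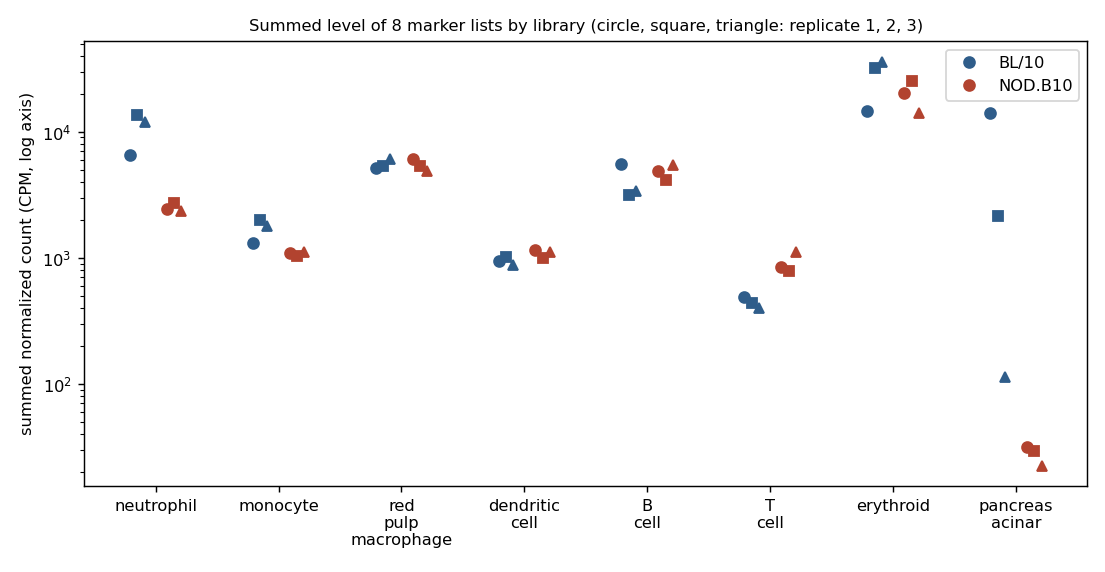
Summed normalized counts (CPM, log axis) of 8 cell type marker lists, 1 symbol per library. The neutrophil sum is 2342 to 2700 in NOD.B10 and 6483 to 13487 in BL/10, the T cell sum is higher in NOD.B10, and the acinar sum of BL/10 runs from 113 to 14092.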

How the data were processed

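RNA from 3 spleens per strain was sequenced in single-end reads, with females used throughout. The authors deposited raw read counts per gene, with no normalization, which per the file header come from featureCounts version 1.5.1 run over Ensembl annotation 84 exons on GRCm38. The submitters' processing notes name HISAT2 version 2.0.5, whereas the paper names Tophat2. Both strains were mapped to a C57BL/6J genome, and how NOD alleles affect the counts was not tested. Libraries were grouped by description and column name, since titles and strain fields name the opposite strain. The description of BL/10 replicate 3 matches its column in library number and strain only. The table of 47729 genes had no entry without a gene and no column of per-sample values left unmapped. Symbols came from GENCODE M21 (47310 identifiers matched).

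Genes kept by filterByExpr were normalized by TMM and compared by the quasi-likelihood test of edgeR version 4.0.16 in R version 4.3.3, with no covariate and Benjamini-Hochberg adjustment over all genes tested (threshold 0.05), after the fit had been tested on simulated data. Each standard error is the log2 fold change divided by the square root of F. CPM values are TMM-normalized. DESeq2 version 1.42.0 and limma version 3.58.1 served as alternatives, beside other normalizations, filters and left-out libraries. Depth set a detection floor of 3 reads, which is 0.164 to 0.192 CPM. The text names all 10 genes, pathway genes past the threshold, the nearest tested gene on each side, for each gene that passed the 3 genes most correlated with it, and Ifi202b, with a few pathway genes beside them for their roles. The 10 genes and all lists were chosen with earlier results of these data known. The symbols Pydc3, Pydc4 and Ahsp were not matched. Some results that these rules would name are not reported here.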

Additional observations from a re-analysis of the deposited data

How the results depend on the processing

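Nlrp1a passed under all 16 alternatives (adjusted p up to 0.00137). Of the 10 genes, 3 passed in the fit reported and 1 to 2 with 1 library left out. The pathway list gave 11 and then 4 to 14, and all genes gave 2656 and then 1269 to 4107. At an adjusted p of 0.01 the counts were 1, 2 and 1035. Without both libraries labelled 36 weeks, which leaves 1 BL/10 library assumed to vary like the others, they were 2, 1 and 1001. DESeq2 called 3254 genes, among them Nlrp1a, Naip5 and Nlrc4, and upper-quartile scaling took Nlrc4 to an adjusted p of 0.0617.

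Some log2 fold changes near 0 changed sign. With 1 library left out, that of Nlrp3 ran from -0.027 (without BL/10 replicate 3) to 0.20, that of Naip2 from -0.013 (without NOD.B10 replicate 3, and -0.0094 without BL/10 replicate 3) to 0.11, and that of Pycard from -0.075 (without BL/10 replicate 3, and -0.0079 without NOD.B10 replicate 1) to 0.20. Without both libraries labelled 36 weeks Pycard had -0.20, Casp1 -0.054 and Casp4 -0.042. The cause was not tested.

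The replicate numbers are shared by the strains. Over all genes, same-numbered libraries correlated only at 0.03, 0.17 and -0.08 in their deviations from the strain means. A block for the replicate number lowered the standard errors of Pycard, Casp1, Casp4 and Il1b (that of Il1b from 0.31 to 0.14). It raised those of the other genes of the 10, so these values do not decide whether the numbers pair the libraries. With the replicate block, 3 of the 10 genes passed, Nlrp1a, Naip5 (adjusted p = 0.0425) and Il1b (adjusted p = 0.0436), while Nlrc4 had 0.0603. The block gave 11 pathway genes and 2889 of all genes, 1388 higher and 1501 lower.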
